A study of Mus musculus with 10 samples.

Results

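The mitochondrial solute carriers of the SLC25 family were examined in granulosa cells of the mouse ovary. The members are the genes whose symbol is Slc25a followed by a number, 47 of the 35087 gene symbols listed, and no measured value entered their choice. Granulosa cells, the somatic cells that surround the oocyte within a follicle, had been cut from ovaries by laser microdissection, and their polyadenylated RNA was amplified and sequenced by GEO-seq, a low-input protocol. All donors were wild-type (WT) C57B6/J females, 3 weeks old. In the treated group (4 libraries) N-acetyl-L-cysteine (NAC), an antioxidant that supplies cysteine for glutathione synthesis, had been given intraperitoneally at 150 mg/kg on each of 3 days. The control group (6 libraries) had received normal saline. Ovaries of both groups were collected on day 4 after the first injection, and every library carries the same batch number, 1. Nothing in the labels says which animal a library came from, so p-values measure the spread between these libraries, which may in part be technical.

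SLC25 carriers are encoded in the nucleus, and most are inserted into the inner mitochondrial membrane, where they exchange nucleotides, phosphate, carboxylates, amino acids and cofactors between cytosol and matrix. The ADP/ATP and phosphate carriers feed ATP synthase and export its product. Others link the tricarboxylic acid cycle to the cytosol, move reducing equivalents in the malate-aspartate shuttle, bring in acylcarnitines for oxidation, or supply the matrix with glutathione, iron, NAD+ and coenzyme A. In the ovary, steroid synthesis begins inside mitochondria.

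The libraries differed in depth and in what they held. Estimated reads per library numbered 1295412, 509945, 116461 and 1667181 in NAC 1 to 4, and 1340324 to 2488408 in saline. One read therefore weighed 2.02 CPM (reads on a library-size scale set by TMM factors) in NAC 2, 7.97 in NAC 3 and at most 0.713 in any other library. Granulosa cell markers were read in every library, with Inha, the inhibin alpha subunit, at 2557 to 32514 CPM. Only NAC 2 had a granulosa marker at 0, Cyp19a1, the aromatase gene. The summed level of the 10 granulosa markers was 4459 to 10299 CPM in NAC. It was 9587 and 13067 CPM in saline 1 and saline 2, and 32085 to 37433 CPM in saline 3 to saline 6. Inha made up most of this sum, with 7521 of 9587 CPM in saline 1 and 32514 of 35682 in saline 4. Of the 10 markers, 9 had negative log2 folds (NAC over saline), against 49% of all genes tested. These ran from -3.37 for Inhba to -0.30 for Foxl2, and Nr5a2 had 0.08. In bulk RNA, fewer cells of a type and less RNA per cell cannot be told apart. The summed endothelial markers ran from 47.8 to 160 CPM in NAC and from 8.02 to 38.2 CPM in saline. Stromal markers (63.7 to 1788 CPM in NAC, 82.2 to 924 in saline) and smooth muscle markers (7.97 to 543 and 4.90 to 294) overlapped between groups. All 7 and all 4 tested members had positive folds (NAC over saline), while 49% of all genes tested had negative ones. Summed oocyte markers ranged from 158 to 1050 CPM in NAC and up to 1488 in saline, with 8 of the 10 at 0 in saline 5 and saline 6. The part of these markers in the results below was not tested, except by the covariate fits named where they apply.

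Of the 47 carriers, 38 were expressed, which here means a mean of at least 5 CPM over the 10 libraries. Of these, 25 had reads in all 10 libraries. Slc25a16 (5.31 CPM) and Slc25a45 (6.66) lay just inside this limit, and Slc25a29 (4.42) and Slc25a43 (2.94) just outside it. The other carriers below it were Slc25a48 (2.16 CPM), Slc25a34 (2.07), Slc25a21, an oxodicarboxylate carrier (0.752), and Slc25a31, the ADP/ATP carrier known from male germ cells (0.589). No read was assigned in any library to Slc25a2, an ornithine carrier, to the ATP-Mg/phosphate carrier Slc25a41 or to Slc25a54. A count of 0 allows up to 3 reads, or 1.32 to 23.9 CPM depending on the library, and such limits cover counting error only.

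Levels of different carriers were compared as TPM, abundances scaled for transcript length, in the 6 saline libraries. Slc25a3, the phosphate carrier that also brings copper into the matrix, stood first with 570 ± 47.9 TPM (SD, n = 6), followed by the ADP/ATP carriers Slc25a5 (529 ± 93.9) and Slc25a4 (332 ± 59.4). These 3 genes together held 59.9% to 68.0% of the family's TPM in every saline library. Slc25a39, a carrier of glutathione into the matrix, came next with 173 ± 40.1 TPM. Slc25a11, the oxoglutarate-malate carrier, had 85.9 ± 24.8 TPM, Slc25a13, the aspartate-glutamate carrier citrin, 66.8 ± 20.3, and Slc25a10, the dicarboxylate carrier, 56.8 ± 13.2. Only these 7 carriers exceeded 50 TPM in saline on average. The Slc25a3 range (485 to 621 TPM) lay inside that of Slc25a5 (457 to 706), so their order was within the spread of the libraries, whereas the highest Slc25a4 library (446) lay below both. The deposited average lengths are much shorter than the longest annotated transcripts for many members. For Slc25a3 they run from 204.7 to 256.6 bases, against 4039 bases in its longest annotated transcript. The TPM do not follow from these lengths alone. In saline Slc25a3 had 570 TPM at 745 CPM, while Slc25a33, with a deposited length of 1887 bases, had 30.3 TPM at 50.8 CPM. A ranking between genes depends on the lengths behind the TPM, which were not examined further.

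**Figure D1:**
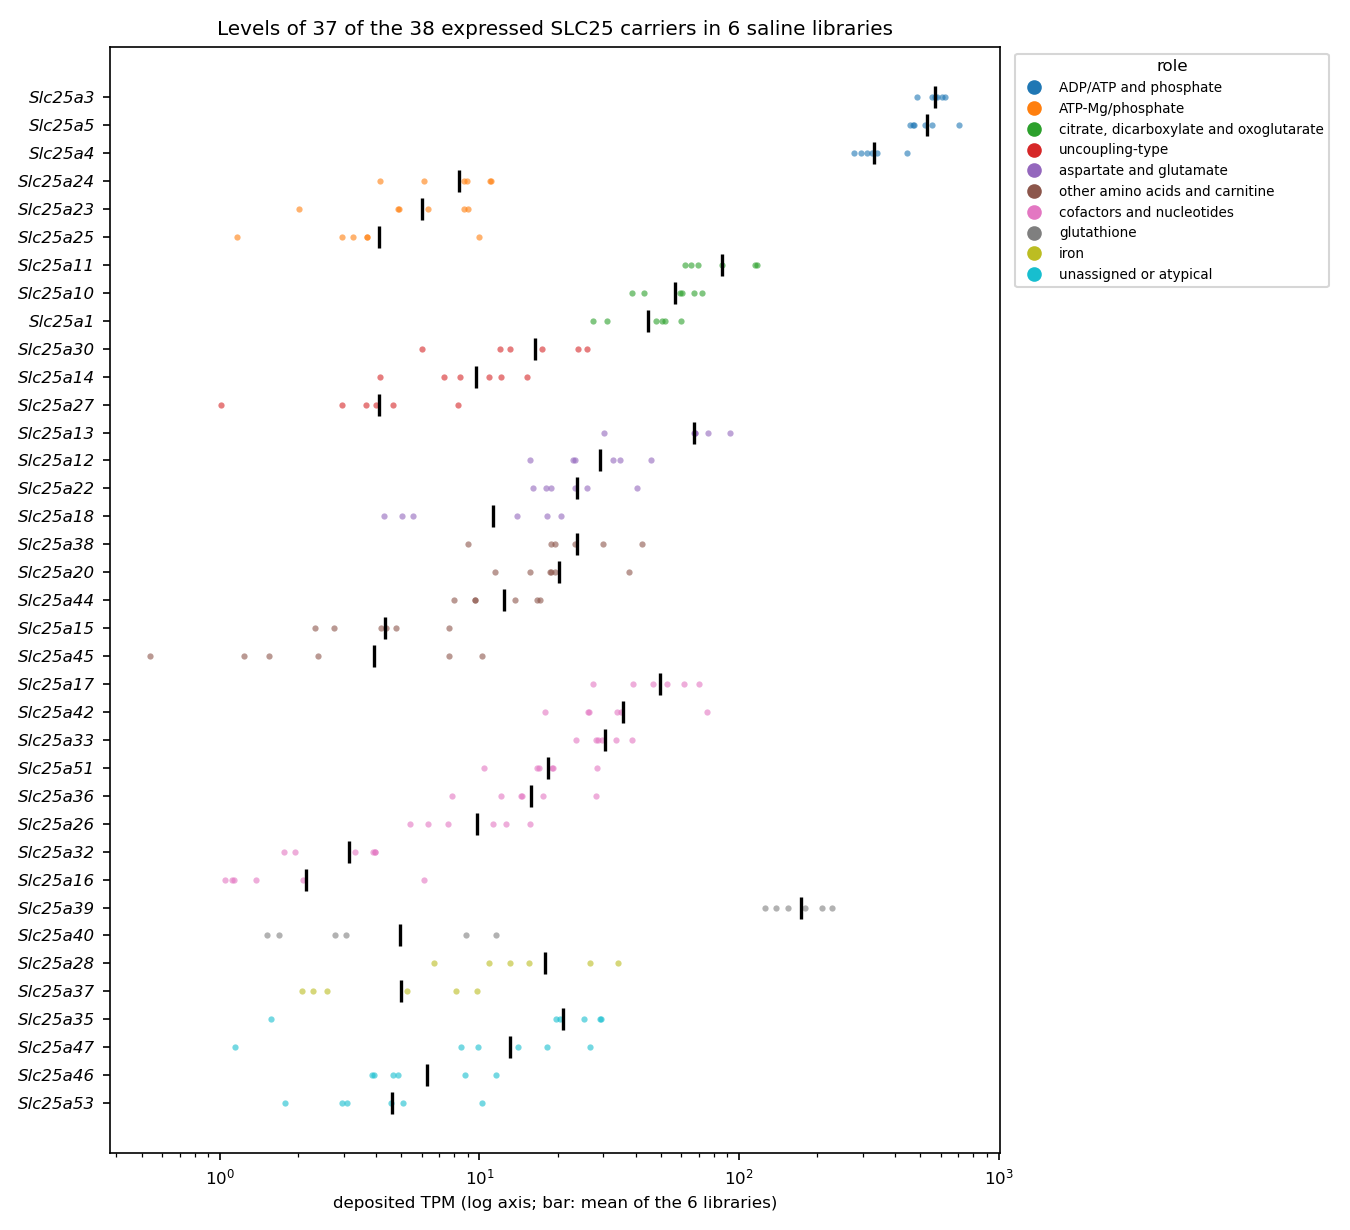
Deposited TPM (log axis) of 37 of the 38 expressed carriers in the 6 saline libraries, 1 point per library and a bar at the mean, ordered by role and coloured by it. Slc25a3, Slc25a5 and Slc25a4 stand at means of 570, 529 and 332 TPM, and Slc25a39 at 173, while most cofactor and amino acid carriers lie below 50.

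The comparison of NAC with saline asked which carriers differ after an antioxidant. No SLC25 carrier changed by the criterion used, an adjusted p under 0.05 in edgeR's quasi-likelihood test with Benjamini-Hochberg adjustment over all 10945 genes tested. The test covered 39 carriers, the 38 expressed ones and Slc25a29, and called 0, while it called 0.0731% of all genes. The smallest adjusted p among carriers was 0.0747, for Slc25a3. At an unadjusted p under 0.05, 6 of 39 (15.4%) were lower in NAC, against 8.37% of all genes tested, and 0 were higher, against 7.79%. Those 6 were Slc25a3, Slc25a29, Slc25a10, Slc25a39, Slc25a13 and Slc25a22. All NAC libraries lay below all saline libraries for 3 of 39 (7.69%; Slc25a3, Slc25a10 and Slc25a29), against 3.43% of all genes. All lay above for 1 (2.56%; Slc25a32, which carries FAD and folate), against 1.96%. A negative log2 fold, NAC over saline, was found for 22 carriers (56.4%), against 49% of genes. The median log2 fold was -0.27 over the 39 carriers and 0.02 over all genes. Slc25a29 had 1 read in NAC and passed the low-count filter through its saline libraries, so its lower value in NAC was built into its being tested. Over the 38 expressed carriers, without it, 5 (13.2%) had an unadjusted p under 0.05 and were lower in NAC, 2 (5.26%) had all NAC libraries below all saline libraries, and the median log2 fold was -0.19. These counts describe the carriers that passed the filter.

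Other tests of the same counts called carriers at about the share of all genes. DESeq2 called 2 of 39 carriers, Slc25a3 (adjusted p = 0.000674) and Slc25a10 (adjusted p = 0.0431), and 433 of all 10945 genes. It gave Slc25a29 no adjusted p, so fewer than these 39 carriers and 10945 genes could be called. With sample quality weights, limma-voom called 1 of 39, Slc25a3 (adjusted p = 0.0153), and 447 of all 10945 genes. That fit gave its highest weight (2.23) to NAC 3, the shallowest library, and its lowest (0.245) to NAC 2. How far its calls depend on these weights was not tested. Intervals were wide, with a median width of 2.43 log2 units at 95%. Only 4 carriers, Slc25a4, Slc25a5, Slc25a11 and Slc25a17, had an interval lying wholly within 1 log2 unit of no difference, so for the rest the interval holds a difference of 2-fold or more in at least 1 direction.

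**Figure D2:**
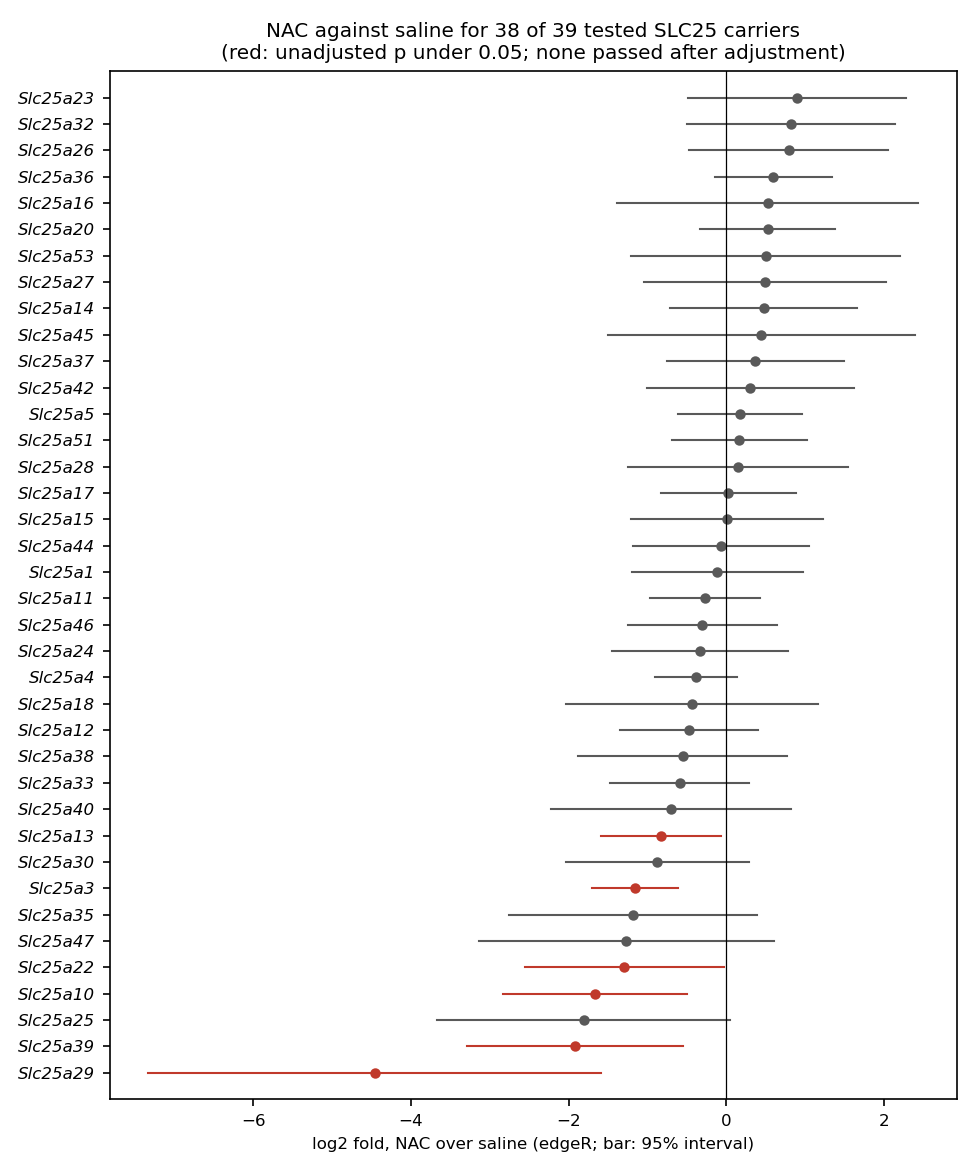
Log2 fold (NAC over saline, edgeR) with its 95% interval for 38 of the 39 tested carriers, ordered by fold. The 6 members in red had an unadjusted p under 0.05 and all lie to the left of 0, and none passed after adjustment over all genes.

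Among the ADP/ATP and phosphate carriers, Slc25a3 (GRCm38 chromosome 10, 91116574 to 91124059, minus strand) showed the smallest p of the family. It stood at 282.5, 295.6, 390.3 and 376.4 CPM in NAC 1 to 4. In saline the lowest, median and highest libraries had 536, 809 and 874 CPM. Every NAC library was below every saline library, and the NAC values were close to each other, with a coefficient of variation of 16.4%. The means were 336 ± 55.0 CPM with NAC (SD, n = 4) against 745 ± 149 with saline (SD, n = 6), and the log2 fold was -1.15 (SE 0.26, 95% interval -1.70 to -0.61, adjusted p = 0.0747 by edgeR). Of the 31-base words of its longest annotated transcript, 1.80% also occur in another gene.

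The level of Slc25a3 was set beside that of the granulosa markers. Saline 1 and saline 2, the saline libraries with the lowest marker sums (9587 and 13067 CPM), had the lowest Slc25a3 of their group (580 and 536 CPM). They lay above NAC 3 and NAC 4 (390.3 and 376.4 CPM), whose marker sums were 10299 and 9756 CPM. With the granulosa marker score as a covariate, chosen after seeing the data, the log2 fold of Slc25a3 was -0.71 (unadjusted p = 0.0617 by edgeR). The adjusted p was 0.9995 for Slc25a3 and for every other carrier named with library values, and 1 gene of 10945 was called. The score ran from -1.38 to -0.24 in NAC and from -0.36 to 1.11 in saline. Treatment and marker level therefore cannot be told apart well in this fit. The median log2 fold of the family was 0.14 in that fit.

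**Figure D3:**
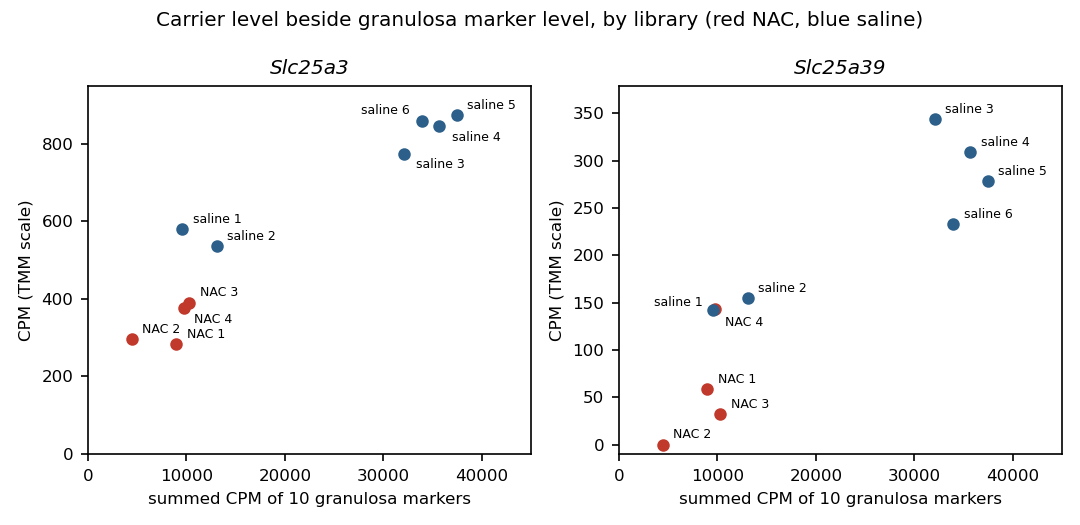
CPM of Slc25a3 (left) and Slc25a39 (right) against the summed CPM of 10 granulosa cell markers, 1 point per library, NAC in red and saline in blue. Inha makes up most of that sum. Saline 1 and saline 2 sit beside the NAC libraries in marker level (9587 and 13067 CPM), with Slc25a3 above all NAC libraries and Slc25a39 close to NAC 4.

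The sequence upstream of Slc25a3 is shown because this carrier had the smallest p, with that of Slc25a10, the other carrier called by DESeq2, beside it. HIF-1, named in the title of the study, is a factor that binds the core ACGTG. Both sequences are RefSeq promoter windows of GRCm38.p6, restricted to the bases before any annotated transcript, written on the strand of the gene with ACGTG in capitals. The Slc25a3 stretch is chr10:91124060-91124217 (minus strand) and the Slc25a10 stretch chr11:120491587-120491836 (plus strand).
Slc25a3: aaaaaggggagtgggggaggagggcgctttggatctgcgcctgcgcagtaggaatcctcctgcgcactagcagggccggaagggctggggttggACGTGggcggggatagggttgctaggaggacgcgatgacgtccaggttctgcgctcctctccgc
Slc25a10: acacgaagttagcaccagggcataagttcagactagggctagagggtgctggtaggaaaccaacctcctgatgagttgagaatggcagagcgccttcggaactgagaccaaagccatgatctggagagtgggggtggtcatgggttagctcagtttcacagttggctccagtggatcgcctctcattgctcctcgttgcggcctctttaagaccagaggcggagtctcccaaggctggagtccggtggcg
The Slc25a3 stretch holds 1 match, whose first base is at -156 from the RefSeq start, and the Slc25a10 stretch holds none on either strand. Over the 250 bases before the start, ACGTG on either strand occurred in 11 of the 36 carriers with a RefSeq promoter (30.6%) and in 16.6% of all 32851 promoters. A carrier counted if any of its promoters held the motif, while the background counts each promoter singly, so the shares are not of like units. The carriers' windows were richer in GC, with a median of 58.6% against 52.4%. Of the 6 carriers with an unadjusted p under 0.05, Slc25a3 and Slc25a13 held it. The forkhead motif GTAAACA and the extended site CAAGGTCA of NR5A and ERR factors, searched on both strands, occurred in 0 of the 36 carriers, and in 3.17% and 1.33% of all promoters. These are letter matches and say nothing of binding.

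The ADP/ATP carriers, which exchange matrix ATP for cytosolic ADP, overlapped between the groups. Slc25a4, the main form of heart and muscle (chromosome 8, 46206797 to 46211284), had 341, 492, 414 and 315 CPM in NAC 1 to 4 and 418 to 634 (median 498) in saline. Its log2 fold was -0.38 (SE 0.25, 95% interval -0.90 to 0.14, adjusted p = 0.456 by edgeR). Slc25a5, the form of proliferating tissues (chromosome X, 36795651 to 36798807), had 300, 1249, 613 and 281 CPM in NAC and 431 to 739 (median 517) in saline. NAC 2 was far above every other library, and NAC 1 and NAC 4 were below all saline libraries. The log2 fold was 0.18 (SE 0.37, adjusted p = 0.838 by edgeR) and turned to -0.50 without NAC 2. Values of Slc25a5 are uncertain, because 67.1% of its 31-base words also occur in other genes, 13 in all, led by Gm5560. Slc25a4 made up 48.7% ± 3.42 (SD, n = 6) of the reads of this pair, not corrected for length, in saline and 43.7% ± 11.9 (SD, n = 4) in NAC, where NAC 2 had 28.3%.

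The 2 glutathione carriers were singled out because NAC is a source of cysteine, a building block of glutathione. Slc25a39 (chromosome 11, 102402985 to 102407946) had 58.5, 0, 31.9 and 143 CPM in NAC 1 to 4 and 142 to 344 CPM (median 255) in saline. NAC 4 lay within the saline range, just above saline 1, and the other NAC libraries lay below all saline ones. The means were 58.4 ± 61.5 CPM with NAC (SD, n = 4) against 243 ± 82.2 with saline (SD, n = 6), and the log2 fold was -1.92 (SE 0.64, 95% interval -3.29 to -0.55, adjusted p = 0.177 by edgeR). Saline 1 and saline 2, with the lowest granulosa marker sums of their group, also had its lowest Slc25a39 values (142 and 155 CPM). Saline 1 had a marker sum of 9587 CPM. At sums of 8986, 10299 and 9756 CPM, NAC 1, NAC 3 and NAC 4 had 58.5, 31.9 and 143 CPM of Slc25a39. With the granulosa score as a covariate its log2 fold was -0.73, and treatment and marker level cannot be told apart well in that fit. The 0 in NAC 2 stands against 120 reads that the saline mean would give at that library's depth. Slc25a40, its less abundant relative (chromosome 5, 8422850 to 8454797), had 9.99, 4.05, 7.97 and 5.84 CPM in NAC and 5.07 to 24.0 (median 7.75) in saline. The groups overlapped, with a log2 fold of -0.70 (SE 0.72, adjusted p = 0.645 by edgeR). Slc25a39 made up 94.3% ± 5.51 of the reads of the pair in saline (SD, n = 6), and 85.4%, 0%, 80.0% and 96.1% in NAC 1 to 4.

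The 3 expressed carboxylate carriers all had negative log2 folds, and 1 of these had an unadjusted p under 0.05. Negative folds made up 49% of all genes tested, and 8.37% of genes were lower in NAC at that p. Slc25a10 (chromosome 11, 120491840 to 120499187) exchanges malate or succinate for phosphate. It had 57.1, 0, 15.9 and 35.6 CPM in NAC 1 to 4 and 71.7 to 123 (median 95.5) in saline. All NAC libraries were below all saline libraries, and the log2 fold was -1.66 (SE 0.55, 95% interval -2.83 to -0.50, adjusted p = 0.169 by edgeR). The antisense gene Gm11788 overlaps it and shares 9.93% of its 31-base words. Slc25a11 (chromosome 11, 70644196 to 70647479), which exchanges oxoglutarate for malate, had 75.6, 119, 119 and 70.6 CPM in NAC and 65.0 to 156 (median 119) in saline, a log2 fold of -0.27 (SE 0.33, adjusted p = 0.705 by edgeR). Its groups overlapped, and its sign turned under 4 alternatives. Slc25a1, the citrate carrier that exports acetyl units for lipid synthesis, ran from 2.02 to 73.8 CPM in NAC and from 34.9 to 60.6 in saline (log2 fold -0.11).

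All 4 aspartate and glutamate carriers had negative folds, with a median of -0.65, and 2 had an unadjusted p under 0.05. Over all genes tested, 49% had a negative fold, and 8.37% were lower in NAC at an unadjusted p under 0.05. Citrin, Slc25a13 (chromosome 6, 6041218 to 6217173), exports aspartate for glutamate in the malate-aspartate shuttle. It had 82.0, 40.5, 135 and 125 CPM in NAC and 77.3 to 219 (median 175) in saline. Saline 2 lay below 3 of the NAC libraries. The log2 fold was -0.83 (SE 0.36, 95% interval -1.60 to -0.06, adjusted p = 0.271 by edgeR), and -0.098 with the granulosa score as a covariate. Slc25a22, a glutamate carrier (chromosome 7, 141429744 to 141437892), had 42.1, 2.02, 0 and 12.2 CPM in NAC and 27.4 to 56.0 (median 46.6) in saline. NAC 1 lay inside the saline range and the other NAC libraries below it, and the log2 fold was -1.29 (SE 0.60, 95% interval -2.56 to -0.03, adjusted p = 0.298 by edgeR). With the granulosa score as a covariate it was -0.16, and without NAC 1 it was -2.57. Slc25a12, the aralar form of the aspartate-glutamate carrier (44.3 ± 17.8 CPM in NAC, 58.8 ± 24.8 in saline), and Slc25a18, a second glutamate carrier (10.8 ± 12.5 and 18.0 ± 10.2), had log2 folds of -0.47 and -0.44.

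**Figure D4:**
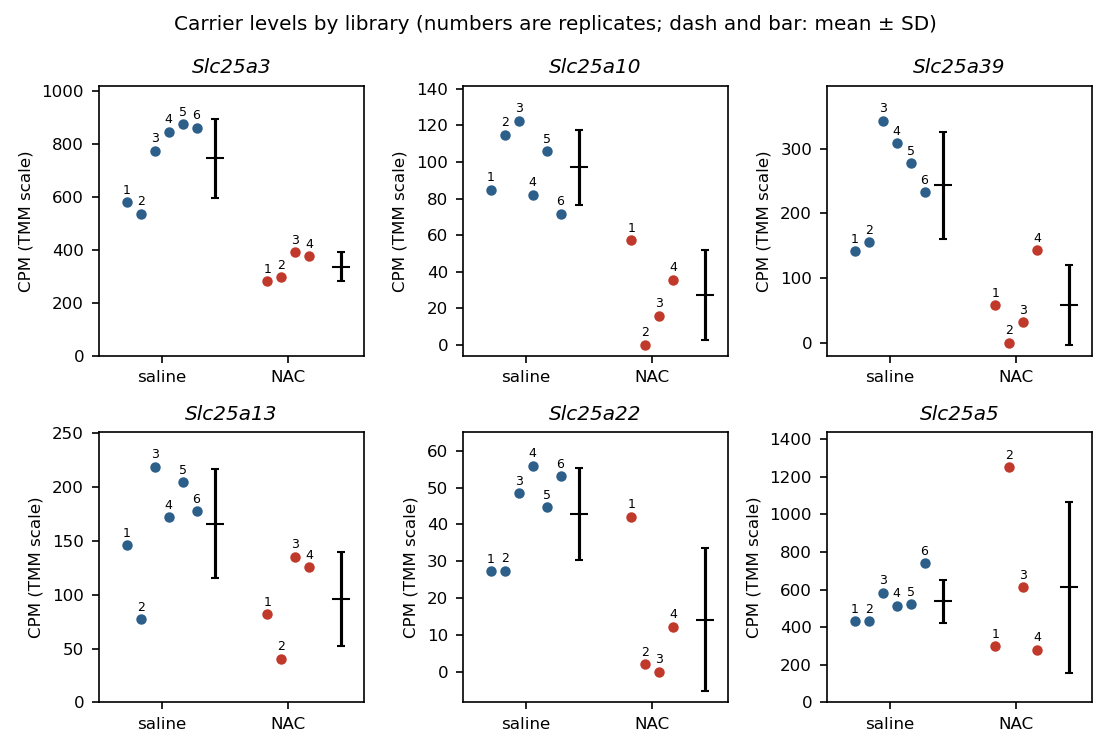
CPM of 6 carriers in each library, with replicate numbers, and the mean ± SD of each group beside the points. Slc25a3 and Slc25a10 show no overlap between NAC and saline, Slc25a39, Slc25a13 and Slc25a22 overlap in at least 1 library, and Slc25a5 has NAC 2 at 1249 CPM.

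The ATP-Mg/phosphate carriers adjust the adenine nucleotide pool of the matrix in response to calcium. Slc25a25 (chromosome 2, 32414487 to 32451445) had 4.28, 0, 7.97 and 1.59 CPM in NAC and 3.26 to 11.9 (median 10.7) in saline. The lowest saline library, saline 2, lay among the NAC values, and the log2 fold was -1.81 (SE 0.88, adjusted p = 0.319 by edgeR). Slc25a24 had a log2 fold of -0.33 and Slc25a23 of 0.90, the highest of the family, with 15.2 ± 12.1 CPM with NAC (SD, n = 4) against 8.88 ± 3.69 with saline (SD, n = 6). Neither had an unadjusted p under 0.05.

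Of the 3 uncoupling-type carriers, Slc25a30 (chromosome 14, 75760117 to 75787037) had 13.6, 10.1, 15.9 and 55.2 CPM in NAC and 20.3 to 98.4 (median 39.1) in saline. NAC 4 lay within the saline range and the other NAC libraries below it (log2 fold -0.87, SE 0.55, adjusted p = 0.442 by edgeR). Without NAC 4 the log2 fold was -1.98 (adjusted p = 0.141 by edgeR), and with the granulosa score as a covariate it was 0.25. Slc25a14 (15.5 ± 5.36 CPM with NAC, 10.9 ± 3.36 with saline) and Slc25a27 (12.3 ± 15.1 and 10.1 ± 5.28) had log2 folds of 0.47 and 0.49. Uncoupling proteins proper carry other symbols. Ucp2, which is not a member by symbol, was the tested one, with 515 ± 341 CPM with NAC against 1433 ± 717 with saline (log2 fold -1.49, SE 0.62, adjusted p = 0.250 by edgeR).

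Among the 6 tested carriers of other amino acids and carnitine, 3 had positive and 3 negative folds, and 49% of all genes tested had negative ones. Slc25a29, a carrier of basic amino acids (chromosome 12, 108825873 to 108835883), had 1 read in NAC, in NAC 1 (0.713 CPM), and 93 in saline, where it ranged from 1.37 to 17.7 CPM (median 7.09). It passed the low-count filter through these saline libraries, so its lower value in NAC was built into its being tested. Nothing is therefore read from its adjusted p of 0.139 by edgeR. Slc25a20, which brings acylcarnitines in for oxidation, had 42.9 ± 18.5 CPM with NAC (SD, n = 4) against 31.6 ± 12.1 with saline (SD, n = 6), a log2 fold of 0.52. Slc25a15, an ornithine carrier (0.01), and Slc25a45 (0.45) also had positive log2 folds. Those of Slc25a38, a glycine carrier needed for heme synthesis (-0.55), and Slc25a44, a branched-chain amino acid carrier (-0.06), were negative.

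The carriers of cofactors and nucleotides had 7 positive and 2 negative folds, with a median of 0.31 and no unadjusted p under 0.05. Of all genes tested, 49% had a negative fold. Slc25a36, a pyrimidine nucleotide carrier (chromosome 9, 97074961 to 97111157), had 92.0, 87.1, 39.8 and 49.4 CPM in NAC and 31.6 to 74.5 (median 41.9) in saline. NAC 1 and NAC 2 were above all saline libraries and the other 2 within their range (log2 fold 0.60, SE 0.35, adjusted p = 0.410 by edgeR). Another locus, Gm13217, shares 13.6% of its 31-base words. Slc25a33, the other pyrimidine nucleotide carrier, had a log2 fold of -0.59. Slc25a32 was the 1 carrier with all NAC libraries (8.56 to 15.9 CPM) above all saline libraries (4.06 to 8.22), at a log2 fold of 0.82 (SE 0.62, adjusted p = 0.531 by edgeR). Its 15.9 CPM in NAC 3 were 2 reads.

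Slc25a26, which imports the methyl donor S-adenosylmethionine, had a log2 fold of 0.79, and its highest NAC library (56.7 CPM) stood apart from the next (15.9). Slc25a51, which imports NAD+, had 79.2 ± 46.6 CPM with NAC (SD, n = 4) against 65.4 ± 19.7 with saline (SD, n = 6), a log2 fold of 0.17. The coenzyme A carriers Slc25a42 (0.31) and Slc25a16 (0.53) had positive log2 folds. Slc25a17, a family member of the peroxisomal membrane, had 0.03, with an interval from -0.83 to 0.88.

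The iron importers of the inner membrane, the mitoferrins, overlapped between the groups. Slc25a37 had 23.6 ± 9.54 CPM with NAC (SD, n = 4) against 18.7 ± 10.4 with saline (SD, n = 6), and Slc25a28 ran from 0 to 40.7 and from 9.64 to 36.3 CPM. The 95% intervals of their log2 folds were -0.75 to 1.49 and -1.25 to 1.54. Among carriers without an assigned substrate, Slc25a35 (chromosome 11, 68968131 to 68974365) had 18.5, 0, 0 and 23.9 CPM in NAC and 4.79 to 49.7 (median 30.7) in saline. Its groups overlapped (log2 fold -1.18, SE 0.74, adjusted p = 0.443 by edgeR), its log2 fold was 1.06 with the granulosa score as a covariate, and 28.1% of its 31-base words lie in transcripts shared mainly with Rangrf, a gene on the opposite strand. Slc25a47 (-1.27) and Slc25a46, an outer membrane protein of mitochondrial dynamics (-0.30), had negative log2 folds and Slc25a53 (0.50) a positive one.

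The spread between libraries was larger in NAC for 31 of the 38 expressed carriers. The same count over all genes was not made. The median coefficient of variation was 72.8% in NAC and 38.95% in saline. Of the 39 tested carriers, 11 had no read in NAC 2, 7 in NAC 3 and 1 in NAC 4. None was at 0 in NAC 1 or in any saline library. Over all genes tested, 84.8% were read in NAC 2, 85.1% in NAC 3, 98.8% in NAC 4 and 97.7% to 99.5% in the others. NAC 3 is the shallowest library. NAC 2 is deeper and lacked more carriers, while its share of all genes read was close to that of NAC 3. In NAC 2, 16 tested carriers had at most 1 read. Besides Slc25a39, these included Slc25a10 and Slc25a42, where the saline mean would give 47.9 and 38.3 reads at that depth. The 3 most abundant carriers, Slc25a3, Slc25a4 and Slc25a5, held 83.6% of the family's TPM in NAC 2, against 49.4% to 62.6% in the other NAC libraries.

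Base composition went with these values. The 16 carriers with at most 1 read in NAC 2 had a median GC content of 56.1% in their longest annotated transcript, against 47.6% for the other 23. Over the 39 carriers the Spearman correlation between GC content and log2 fold was -0.35, a description over genes measured in the same 10 libraries. The median log2 fold of carriers was 0.10, 0.03, -0.06 and -0.55 from the lowest to the highest of 4 GC groups, which divide all tested genes evenly. Over all genes in those groups it was 0.44, 0.15, -0.18 and -0.41. Slc25a39 (59.7% GC), Slc25a10 (60.6%), Slc25a29 (60.4%) and Slc25a22 (57.6%) lay in the highest group. Slc25a3 (43.6%) lay in the lowest, and with offsets for GC content and length its log2 fold was -1.48 (adjusted p = 0.0441 by edgeR), the 1 carrier called in that fit. The offsets rest on the longest annotated transcript, 4039 bases for Slc25a3. Whether that form held the reads was not tested. In the same fit Slc25a39, Slc25a10 and Slc25a22 had log2 folds of -1.50, -1.27 and -1.23, against -1.92, -1.66 and -1.29 without offsets, and were called in neither.

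**Figure D5:**
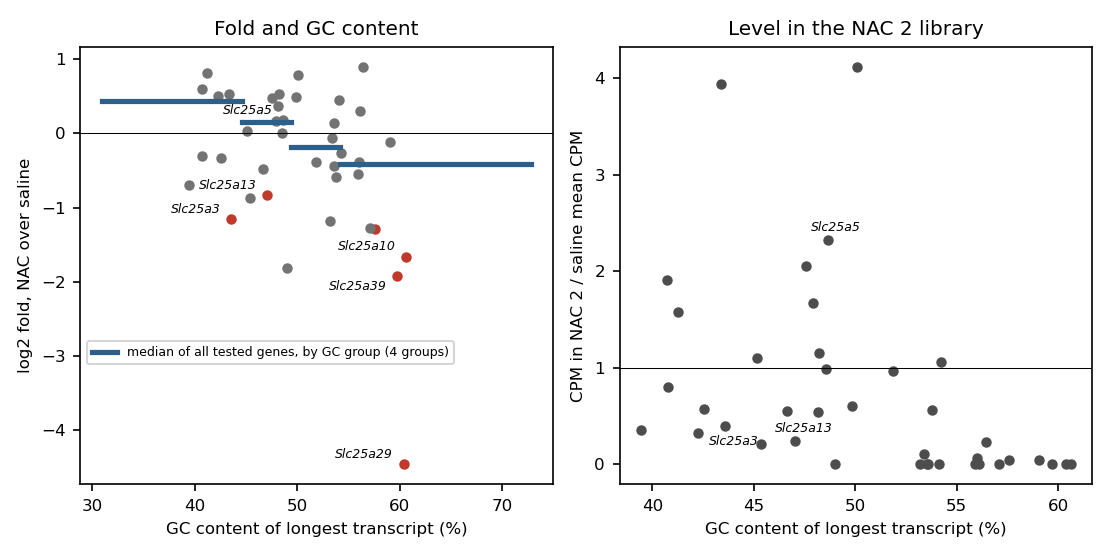
Left, log2 fold (NAC over saline) of the 39 tested carriers against GC content of the longest transcript, with unadjusted p under 0.05 in red and blue lines at the median of all tested genes in each of 4 GC groups (0.44, 0.15, -0.18 and -0.41). Right, CPM in NAC 2 divided by the saline mean, where the 11 carriers with no read lie at 0, most of them above 50% GC.

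Genes that work with the carriers were read from lists, and none of their members passed the test. Over all genes tested, 49% had a negative fold. An unadjusted p under 0.05 was found for 8.37% in the negative and 7.79% in the positive direction. The insertion route for carriers, through the outer membrane receptors and the TIM22 complex, had 13 of 13 genes tested, 5 with positive and 8 with negative folds. Timm13, a chaperone of the intermembrane space (144 ± 91.3 CPM with NAC, 330 ± 61.0 with saline, log2 fold -1.12, adjusted p = 0.149 by edgeR), and Timm22, the pore of the insertase (-0.73, adjusted p = 0.260), had unadjusted p under 0.05 in the negative direction. The small chaperones Timm8a1 (1.13, adjusted p = 0.230) and Timm8b (0.73, adjusted p = 0.236) had it in the positive one.

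Among the 4 enzymes of the malate-aspartate shuttle, which works through Slc25a11, Slc25a12 and Slc25a13, 3 had negative folds, against 49% of all genes tested. Mdh2, the mitochondrial malate dehydrogenase, had 453 ± 77.7 CPM with NAC (SD, n = 4) against 834 ± 165 with saline (SD, n = 6), a log2 fold of -0.88 (adjusted p = 0.123 by edgeR). Got1, the cytosolic aspartate aminotransferase, had 94.9 ± 48.4 and 195 ± 38.4 (log2 fold -1.12, adjusted p = 0.146 by edgeR). Got2 (-0.62) and Mdh1 (0.21) had an unadjusted p above 0.05. Of the 4 enzymes of citrate synthesis and cleavage, citrate synthase, Cs, had 129 ± 25.3 CPM with NAC against 190 ± 21.8 with saline (log2 fold -0.54, adjusted p = 0.278 by edgeR). All 4 tested carnitine enzymes had negative folds, from -0.24 for Cpt1c to -0.55 for Crat, and none had an unadjusted p under 0.05. That direction held for 49% of all genes tested. Of 19 tested transporters of other families, 13 had negative folds, led in p by Sfxn1, the serine transporter (-0.62, adjusted p = 0.338 by edgeR), and none had an unadjusted p under 0.05.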

How the data were processed

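Each library has a gene-level table that the authors made with Salmon, with reads placed on GRCm38, as the submitters' processing notes list; no version is given in the sources used here. The deposited tables hold estimated counts, TPM and average and effective lengths, per the file headers. Rows without a gene symbol (1548 rows, 0.496% to 0.638% of the reads) entered neither library sizes nor tests. Estimated counts were rounded and fitted with edgeR 4.0.16 in R 4.3.3 (quasi-likelihood test, robust, TMM factors, default filter), NAC (4 libraries) against saline (6), with Benjamini-Hochberg adjustment over 10945 genes. The SE is the size of the log2 fold over the square root of F. The script was tested on simulated data. Salmon splits reads between similar sequences, which makes members with close copies uncertain, and strand use in counting is not stated. Amplified reads carry no molecular identifier here and are not independent.

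The members were set by symbol, while the lists and tests were chosen with earlier results of these data known. Named with library values were any member called, the 10 members with the smallest p, the 6 most abundant in saline by TPM, the glutathione carriers and the tested ADP/ATP and phosphate carriers; from other lists, up to 4 genes with the smallest p. Other members are named by level or fold, and the values of 1 member are not reported here. Whether replicate numbers pair libraries is not known from the labels. The deviations of same-numbered libraries correlated at -0.01, 0.01, 0.01 and 0.20, which cannot exclude a pairing. Positions, and the GC content and 31-base words of each longest transcript, came from GENCODE M21 on GRCm38. Promoters came from RefSeq on GRCm38.p6 (36 of 47 members matched). Alternatives were RLE factors, plain library size, DESeq2 1.42.0, limma 3.58.1 (voom, and log2(TPM + 1)), other filters, oocyte or granulosa scores as covariates (the latter added after seeing the data), GC and length offsets, thinning, a replicate block, libraries left out and other thresholds.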

Additional observations from a re-analysis of the deposited data

Results flagged for a closer look

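In 6 of the 78 groups of library values examined (39 carriers in 2 groups), 1 library was far from the rest of its own group, and chance alone flags about 1 group in 20. Slc25a25 in saline 2 was low (3.26 CPM, nearest other 9.59) and Slc25a36 in saline 2 was high (74.5 CPM, nearest 47.2). Slc25a26 in NAC 2 had 56.7 CPM (nearest 15.9), Slc25a30 in NAC 4 had 55.2 CPM (nearest 15.9) and Slc25a33 in NAC 3 had 79.7 CPM (nearest 29.2), from 10 reads. Slc25a29 in NAC 1 had 0.713 CPM, a single read, with 0 in the other NAC libraries.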

How the results depend on the processing

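No carrier was called in the edgeR fits that left out 1 library, nor with RLE factors, library size alone, TPM, the strict filter, either covariate, thinning, the replicate block or NAC 2 and NAC 3 left out. Carriers called numbered 2 with DESeq2, and 1 (Slc25a3) with limma-voom, without a low-count filter, with GC and length offsets, or at an adjusted p under 0.10. Slc25a3 was negative under all 23 alternatives (-1.48 to -0.71), as was Slc25a39 (-3.15 to -0.73). Genes called over all genes, 8 as reported, numbered 433 with DESeq2, 447 with limma-voom, 226 without a filter, 16 with offsets, 41 after thinning to 115666 reads (8 carriers tested), 184 at an adjusted p under 0.10, 2 without NAC 2 and NAC 3, and 1 each with the oocyte score, the granulosa score and the replicate block. They ranged from 1 to 58 with 1 library left out (58 without NAC 1, 39 without NAC 2, 22 without saline 1, 5 without saline 2, and 1 or 2 without any other). The carriers' median log2 fold, -0.27, became -0.089 with library size alone (all genes 0.18), 0.14 with the granulosa score, -0.085 with offsets and 0.16 after thinning, and stayed between -0.41 and -0.14 with 1 library left out. Slc25a5 turned to -0.45 with limma-voom, -0.39 with the granulosa score, -0.067 with offsets and -0.93 without NAC 2 and NAC 3, and ranged from -0.50 (without NAC 2) to 0.32 with 1 library left out. Slc25a11 turned to 0.26 with the granulosa score, 0.24 with offsets, 0.43 after thinning and 0.027 with the replicate block. With the granulosa score Slc25a30 turned to 0.25 and Slc25a35 to 1.06, and Slc25a13 (-0.83) became -0.098, Slc25a22 (-1.29) -0.16, Slc25a25 (-1.81) -1.01, Slc25a36 (0.60) 0.25 and Slc25a40 (-0.70) -1.43. The cause of these changes was not tested.

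With 1 library left out, Slc25a39 ranged from -2.97 (without NAC 4) to -1.49 (without NAC 2), Slc25a22 from -2.57 (without NAC 1) to -0.93 (without NAC 2), Slc25a10 from -2.30 (without NAC 1) to -1.25 (without NAC 2), Slc25a30 from -1.98 (without NAC 4) to -0.57 (without saline 5), Slc25a35 from -1.81 (without NAC 4) to -0.78 (without NAC 2), Slc25a36 from 0.33 (without NAC 1) to 0.75 (without saline 2) and Slc25a40 from -1.07 (without NAC 1) to -0.35 (without saline 1). It is not known whether replicate numbers pair these libraries. With the number as a block, Slc25a3 had -1.01 (adjusted p = 0.602 by edgeR). The number of expressed carriers was 38, and 37 without NAC 2 or without saline 2. Depth limits carriers near 5 CPM most, since 1 read in NAC 3 is worth more than that.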
